A study of Homo sapiens with 12 samples.

Results

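The miR-181 family was described from small RNA sequencing of Mono Mac 6 (MM6) cells, a human monocytic line. All entries of the type mature miRNA whose name is an arm of miR-181a, miR-181b, miR-181c or miR-181d were taken, which gave 8 of the 314 mature miRNAs listed in either deposited table. Wild-type MM6 cells were compared with 5-LOΔ cells, in which ALOX5, the gene of 5-lipoxygenase (5-LO), is labelled as ALOX-5 -/-. The comparison asks which miRNAs differ in level when 5-LO, a leukotriene-forming enzyme that can bind the miRNA-processing enzyme Dicer, is missing. Each genotype was sequenced without and with LPS (1 µg/mL for 6 h), with 3 libraries in each of the 4 groups. All cells, wild-type cells included, had received calcitriol (50 nM) and TGF-β (1 ng/mL) to differentiate, for 72 h by the labels and by the study's account of this sequencing, where its general methods give 96 h. The 5-LOΔ cells were made with a lentiviral CRISPR/Cas9 vector and grown from single cells, the labels do not name the clone behind a library, and the controls are labelled only as wild type. Genotype, clone and vector therefore cannot be told apart, and small RNA does not measure ALOX5 itself.

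Each level used here is the authors' mean of normalized counts over the 3 libraries of a group, without an SD, so no test over libraries could be fitted from these levels. The p-values of the authors' own comparison, which the tables also hold, were not used. A 95% counting interval was computed for each ratio from the relative depths of the libraries, and it covers the sampling of reads only. Reads carry no molecular identifiers in these tables, so duplicates from PCR count as reads. A wider interval adds 1 spread between libraries of 32.4% (CV) to every group, borrowed from 122 values of mature miRNAs with means of 5 to 20. The group estimates behind it ran from 18.9% in wild-type cells to 38.1% in wild-type cells with LPS. The latter rests on 15 values with means of 5 to 10. The wider interval is an approximation for members of higher level. A difference is called large here where the means differ 1.5-fold or more and the mean of the groups compared is at least 10.

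The means of all noncoding RNAs summed to between 9680900 and 12142907 normalized counts per group, of which mature miRNAs made up 0.934% to 1.09%. Without the arms of miR-3607, the most abundant mature entries, the rest made up 0.539% to 0.668%. Shares of the mature sum given below include these arms unless stated. The 3 miRNAs fixed as myeloid markers were present in every group, with miR-223-3p at 58.0 to 93.8, miR-142-3p at 75.1 to 97.9 and miR-142-5p at 254 to 394 normalized counts. Of the 6 miRNAs fixed as markers of other cell types, miR-451a, miR-150-5p, miR-122-5p and miR-141-3p had no entry, and epithelial miR-200c-3p lay between 0 and 1.19. Neural miR-9-5p stood at 16.2 in wild-type and 42.3 in 5-LOΔ cells without LPS and at 19.7 and 21.2 with LPS, and its part in the results was not tested.

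miRNAs are short RNAs that guide Argonaute proteins to messenger RNAs, mainly through pairing of the seed, bases 2 to 8 of the mature strand. Each hairpin precursor is cut by Drosha and then by Dicer into a 5p and a 3p arm, and usually one arm is retained in Argonaute while the other is lost. The miR-181 family is best known from blood cells, where miR-181a tunes T cell receptor signalling and members also act in B cell, NK cell and myeloid development. Its genes form pairs of an a or c copy with a b or d copy.

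The mature sequences are shown because shared and different letters decide which reads can be assigned to 1 gene. They are RefSeq sequences, 5′ to 3′, with the seed in capitals, and all 8 members were matched to the table, which was made from GRCh38.p14. miR-181d is listed without an arm and was matched to miR-181d-5p.
miR-181a-5p: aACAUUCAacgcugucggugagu
miR-181b-5p: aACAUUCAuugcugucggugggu
miR-181c-5p: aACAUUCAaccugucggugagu
miR-181d-5p: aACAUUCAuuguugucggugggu
miR-181a-3p: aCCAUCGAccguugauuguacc
miR-181a-2-3p: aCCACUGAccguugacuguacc
miR-181b-3p: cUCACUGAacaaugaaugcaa
miR-181c-3p: aACCAUCGaccguugaguggac
The 5p arms shared the seed ACAUUCA, which 5 of the 2370 mature names of the table hold. The fifth, miR-4262, had no entry in the deposited tables. Counted from the 5′ end of miR-181a-5p, miR-181b-5p differs by A9U, C10U and A21G, and miR-181d-5p differs from miR-181b-5p by C12U alone. The 3p arms do not share that seed. miR-181a-3p differs from miR-181a-2-3p by C5U, U6C and C16U, so both arms differ from each other inside the seed. miR-181c-3p starts 1 base earlier than miR-181a-3p and then shares its first 15 bases, which moves its seed by 1 position. How many mismatches the authors' alignment allowed is not given in the sources used here, and reads with an error at these positions could have been counted for a neighbour.

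On GRCh37, the assembly called hg19 in the labels, the family lies in 3 pairs of hairpins. MIR181A1 (chr1:198828173-198828282) and MIR181B1 (chr1:198828002-198828111) lie 61 bp apart on the minus strand. They are in an intron of 2 of the 8 transcripts of the lncRNA gene MIR181A1HG. MIR181A2 (chr9:127454721-127454830) and MIR181B2 (chr9:127455989-127456077) lie 1158 bp apart on the plus strand. They are in an intron of 1 of the 2 transcripts of the lncRNA gene MIR181A2HG and opposite to an intron of NR6A1. MIR181C (chr19:13985513-13985622) and MIR181D (chr19:13985689-13985825) lie 66 bp apart on the plus strand, inside an intron of some transcripts of NANOS3. miR-181b-5p is encoded by both MIR181B1 and MIR181B2, and miR-181a-5p by both MIR181A1 and MIR181A2. The miR-181a-5p arm with its next bases in each hairpin is shown because it sets the limit of locus assignment. It is given as 30 bases from its start, with the first differing letter in capitals.
MIR181A1: aacauucaacgcugucggugaguuuggAau
MIR181A2: aacauucaacgcugucggugaguuuggGau
Both genes give the same 23-base arm and the same 4 bases after it, and the first difference is at base 28. The reads of miR-181a-5p therefore cannot be told apart by locus, whereas miR-181a-3p comes only from MIR181A1 (chr1:198828198-198828219) and miR-181a-2-3p only from MIR181A2 (chr9:127454797-127454818).

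miR-181a-5p was the most abundant member in every group and among the 10 most abundant mature miRNAs. Its mean was 2173 normalized counts in wild-type cells, 2387 in 5-LOΔ cells, 1780 in wild-type cells with LPS and 2415 in 5-LOΔ cells with LPS. These means rest on about 5311 to 6797 reads per group and equal 1.91% to 2.19% of the summed mature miRNAs, miR-3607 included. miR-181b-5p followed with 469.7, 465.7, 385 and 410.3 normalized counts in the same order of groups. miR-181d stood at 183, 173, 139 and 146, and miR-181c-5p at 145, 159, 117 and 144. The 4 members with the shared seed together made up 2.60% to 2.90% of the mature sum, and miR-181a-5p alone was 73.2% to 77.5% of their total. Whether the tables without and with LPS were scaled together is not stated, so levels compared across them may depend on the scaling.

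The order of the 5p arms was miR-181a-5p, miR-181b-5p, miR-181d and miR-181c-5p in all 4 groups. The last 2 places were close. miR-181d was 1.27 times miR-181c-5p in wild-type cells (counting interval 1.12 to 1.44), but the ratio was 1.09 (0.957 to 1.24) in 5-LOΔ cells, 1.19 (1.03 to 1.37) in wild-type cells with LPS and 1.02 (0.885 to 1.16) in 5-LOΔ cells with LPS. In both 5-LOΔ groups the order of these neighbours was thus within the counting error. Levels of different sequences also carry differences in adapter ligation, which the tables do not show, so changes of a ratio between groups are easier to read than the ratio itself.

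The 3p arms were far less abundant. miR-181a-2-3p led them with 65.8 normalized counts in wild-type cells, 127 in 5-LOΔ cells, 51.1 in wild-type cells with LPS and 74.5 in 5-LOΔ cells with LPS. miR-181a-3p stood at 19.4, 21.5, 27.4 and 42.0, and miR-181c-3p at 24.9, 31.1, 20.6 and 19.2 in the same order. These 2 arms changed places between the tables. The ratio of miR-181c-3p to miR-181a-3p was 1.28 (counting interval 0.914 to 1.80) in wild-type and 1.45 (1.04 to 2.01) in 5-LOΔ cells without LPS, and 0.753 (0.541 to 1.05) and 0.457 (0.331 to 0.630) with LPS.

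miR-181b-3p was close to undetected. Recovered reads were 4 in the deepest wild-type library and 0 in the other two, 2 and 0 in the same way in wild-type cells with LPS, and 1 and 0 in 5-LOΔ cells with LPS. In 5-LOΔ cells without LPS it was listed at 0, which allows a mean of up to 1.06 normalized counts (3 reads over the group). No fold is given for this arm. Arms named miR-181b-2-3p or miR-181d-3p had no entry in the tables. The 7 other members passed the minimum mean of 10 in every comparison.

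**Figure D1:**
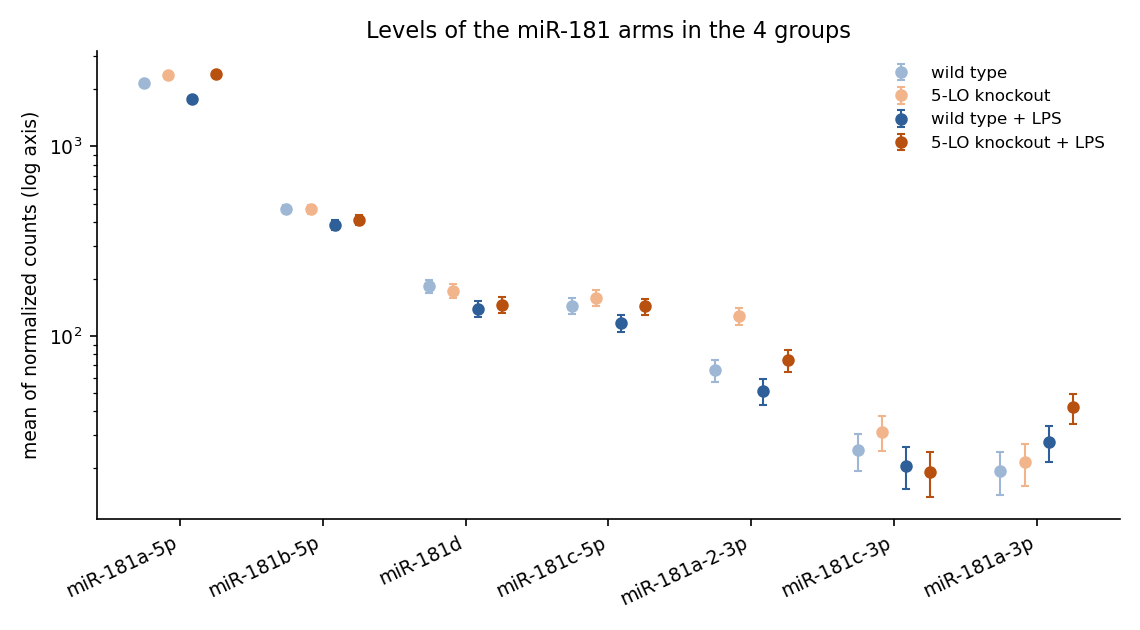
Level of 7 miR-181 members (all but miR-181b-3p) in the 4 groups, as the authors' mean of normalized counts over 3 libraries on a log axis, with bars for the 95% counting interval. miR-181a-5p lies between 1780 and 2415 in all groups, miR-181a-2-3p is highest in 5-LOΔ cells without LPS (127), and miR-181a-3p is highest in 5-LOΔ cells with LPS (42.0).

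Without LPS, 1 member differed largely between the genotypes. miR-181a-2-3p, the passenger arm of MIR181A2, was 65.8 in wild-type and 127 in 5-LOΔ cells, 1.93-fold higher in the knockout (log2 0.95, counting interval 0.70 to 1.20). The wider interval was 0.16 to 1.74. Of the 111 mature miRNAs compared, 26 (23.4%) were at least 1.5-fold higher and 5 (4.5%) at least 1.5-fold lower in 5-LOΔ cells. Among the members these counts were 1 of 7 and 0 of 7. A 2-fold rule left no member, beside 7.21% higher and 2.7% lower over all miRNAs. For miR-181a-2-3p alone, 9 of the 111 had a larger ratio, and whether the libraries of the groups overlap cannot be seen from means. Neural miR-9-5p was higher in the same group, at 16.2 and 42.3.

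The other arms stayed within a narrow range without LPS. The log2 ratio of knockout to wild type was 0.14 for miR-181a-5p (counting interval 0.087 to 0.18), -0.01 for miR-181b-5p (-0.12 to 0.095), 0.14 for miR-181c-5p (-0.049 to 0.33) and -0.08 for miR-181d (-0.25 to 0.094). It was 0.15 for miR-181a-3p (-0.37 to 0.66) and 0.32 for miR-181c-3p (-0.12 to 0.76). Of these 6, miR-181a-5p alone had a counting interval above 0, and its wider interval was -0.61 to 0.89. The summed 5p arms were 2971 and 3186, 1.07-fold apart (log2 0.10, 0.059 to 0.14).

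Of these 6 ratios, those other than miR-181d lay inside the middle 50% of mature miRNAs (-0.04 to 0.56). The median over the 111 miRNAs was 0.17, with 66.7% above 0, and the median over the 7 members was 0.14, with 5 of 7 above 0. With a median off 0, the sign of a small ratio depends on the scaling. With equal sums of mature miRNAs in both genotypes, miR-181a-5p went from 0.14 to -0.01, and the summed 5p arms went from 0.10 to -0.05. miR-181c-5p and miR-181a-3p turned below 0 under every planned scaling, to -0.078 and -0.072 with the median miRNA set to 0. With the arms of miR-3607 left out of the mature sums they were at -0.19 and -0.18, and miR-181c-3p turned to -0.006. The arms of miR-3607 had near-equal means, 21243 and 21274 over both genotypes. miR-181a-2-3p stayed above 1.5-fold under each of the 4 other scalings tried, with log2 ratios of 0.62 to 0.80. Over all mature miRNAs, the split of 26 higher and 5 lower became 15 and 9 with equal mature sums.

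**Figure D2:**
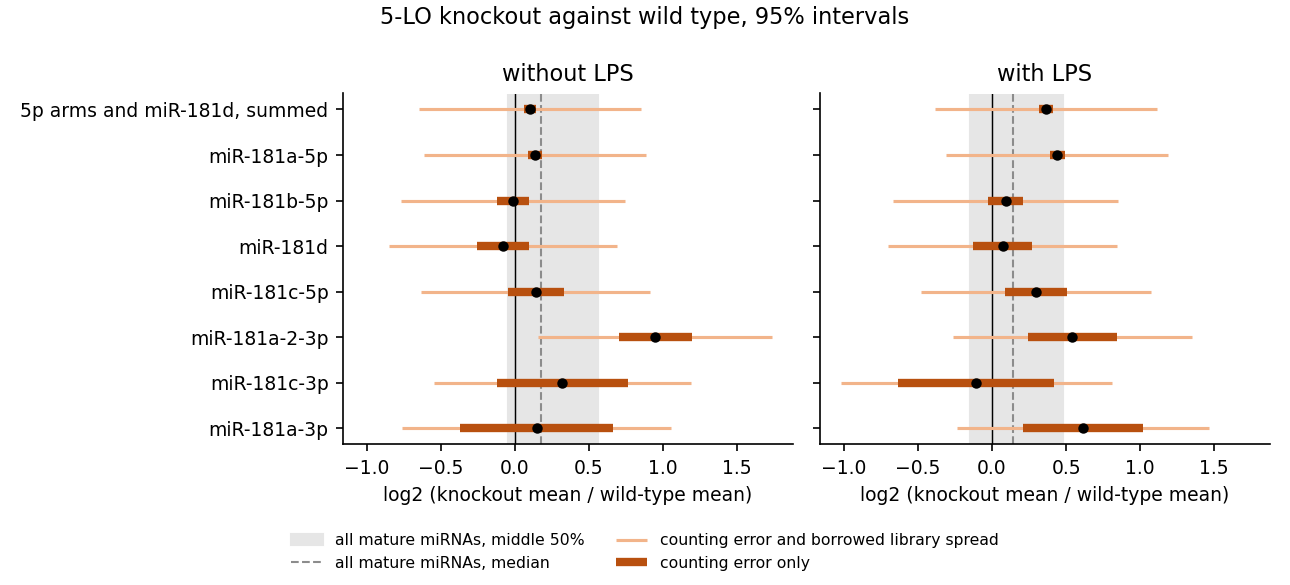
Log2 ratio of 5-LOΔ to wild-type means for 7 members and the summed 5p arms, without and with LPS, with the counting interval (thick bars) and the wider interval that adds a borrowed spread between libraries (thin bars). The grey band holds the middle 50% of all mature miRNAs and the dashed line their median. miR-181a-2-3p without LPS (0.95) is the one value whose wider interval lies above 0.

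With LPS, the 1 member past 1.5-fold was miR-181a-3p, the passenger arm of MIR181A1. Its means were 27.4 in wild-type and 42.0 in 5-LOΔ cells, 1.53-fold apart (log2 0.62, counting interval 0.21 to 1.02, wider interval -0.24 to 1.47). It lay just past the threshold and fell short of it under each of the 4 other scalings. miR-181a-2-3p was just short of it, at 51.1 and 74.5 (1.46-fold, log2 0.54, 0.24 to 0.84). Of the 108 mature miRNAs compared, 20 (18.5%) were at least 1.5-fold higher and 5 (4.63%) lower in 5-LOΔ cells, against 1 of 7 and 0 of 7 members. A 2-fold rule left no member here either, beside 4.63% higher and 3.7% lower. With equal mature sums, the split over all mature miRNAs went from 20 higher and 5 lower to 10 and 17.

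With LPS, the wild-type mean of miR-181a-5p was 1780 and the 5-LOΔ mean 2415, a 1.36-fold difference (log2 0.44, counting interval 0.39 to 0.49). The interval is narrow because about 5311 and 6797 reads stand behind the means. With the borrowed spread between libraries it widened to -0.31 to 1.19. miR-181c-5p had a log2 ratio of 0.30 (0.091 to 0.50), miR-181b-5p of 0.09 (-0.027 to 0.21), miR-181d of 0.07 (-0.12 to 0.27) and miR-181c-3p of -0.11 (-0.63 to 0.42). The summed 5p arms were 2421 and 3115, 1.29-fold apart (log2 0.36, 0.32 to 0.41). The median of the members was 0.30, with 6 of 7 above 0, beside 0.14 over the 108 miRNAs, of which 62.0% were above 0. With equal mature sums miR-181a-5p was at 0.20, miR-181b-5p at -0.15 and miR-181d at -0.17, so the last 2 turned sign, and miR-181c-5p turned to -0.03 with miR-3607 left out.

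**Figure D3:**
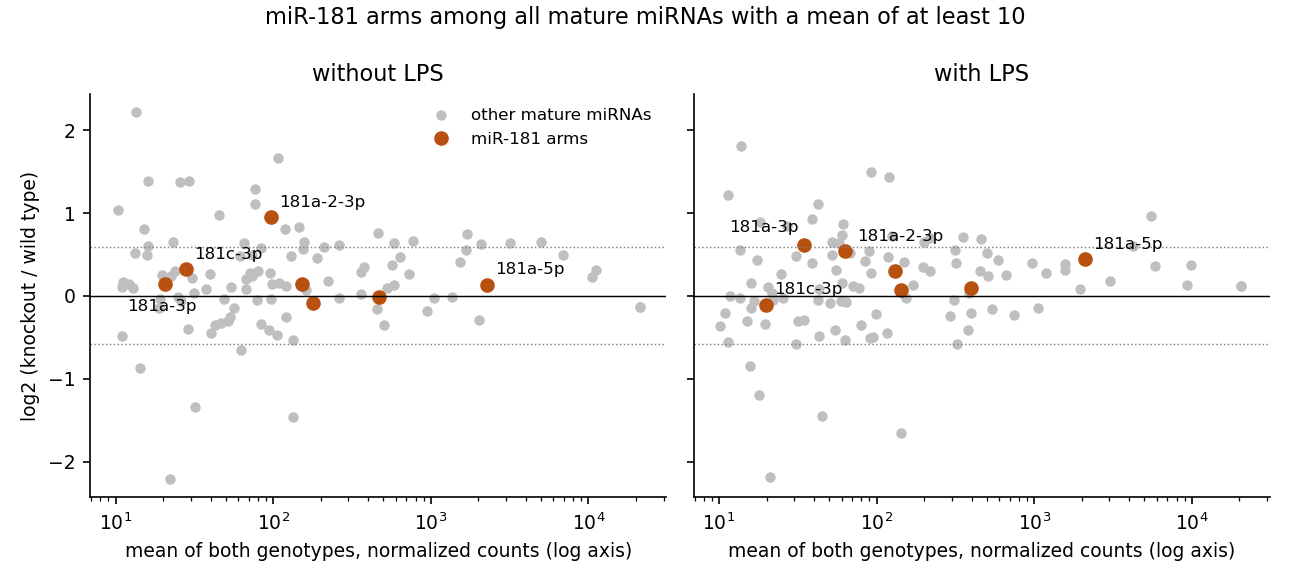
Log2 ratio of 5-LOΔ to wild-type means against the mean of both genotypes (log axis) for all mature miRNAs with a mean of at least 10, 111 without and 108 with LPS. The miR-181 arms are drawn in colour and the dotted lines mark 1.5-fold. Most arms lie near the bulk of the points, and the arms above the upper line are miR-181a-2-3p without LPS (0.95) and miR-181a-3p with LPS (0.62).

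The ratio of knockout to wild type was then set against LPS. For miR-181a-5p it was 0.30 larger on the log2 scale with LPS than without (counting interval 0.23 to 0.38, wider interval -0.76 to 1.37). For miR-181a-2-3p it was 0.40 smaller (-0.80 to -0.015, wider -1.53 to 0.72), and for miR-181a-3p 0.47 larger (-0.19 to 1.13). For the summed 5p arms the difference was 0.26 (0.20 to 0.32). None of these differences lay beyond 0 by the wider interval.

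LPS itself was compared within each genotype on the share of the mature sum, because levels of the 2 tables may not share a scale. LPS is a bacterial product that signals through TLR4, and the NF-κB-induced miR-146 family is a common readout of it. miR-146a-5p went from 66.9 to 468 normalized counts in wild-type and from 100.1 to 555 in 5-LOΔ cells. miR-181a-3p was the one member with a larger share under LPS in both genotypes by the 1.5-fold rule. Its share was 0.0190% without and 0.0294% with LPS in wild-type cells (log2 0.63, counting interval 0.15 to 1.11), and 0.0189% and 0.0381% in 5-LOΔ cells (log2 1.01, 0.56 to 1.45). The wider intervals were -0.26 to 1.52 and 0.13 to 1.88. With levels as deposited in place of shares, the wild-type value fell short of 1.5-fold (log2 0.50), and the 5-LOΔ value was 0.97. At least 1.5-fold larger shares were seen for 9 of 109 mature miRNAs (8.26%) in wild-type and 8 of 110 (7.27%) in 5-LOΔ cells.

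The partner arm of the other locus went the opposite way in 5-LOΔ cells. The share of miR-181a-2-3p was 0.112% without and 0.0675% with LPS (log2 -0.73, counting interval -0.98 to -0.48), and that of miR-181c-3p was 0.0274% and 0.0174% (log2 -0.66, -1.15 to -0.17). The wider intervals of both, -1.52 to 0.058 and -1.55 to 0.24, included 0. These 2 of 7 members stand beside 23 of 110 mature miRNAs (20.9%) with a share at least 1.5-fold smaller. Both fell short of 1.5-fold when the sum of all noncoding RNAs was used in place of the mature sum, with log2 values of -0.51 and -0.44. In wild-type cells no member had a share 1.5-fold smaller, beside 4 of 109 (3.67%), and miR-181a-2-3p was at -0.23 (-0.53 to 0.075).

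No 5p arm passed the 1.5-fold rule with LPS. In wild-type cells the log2 change of the share was -0.15 for miR-181a-5p, -0.15 for miR-181b-5p, -0.17 for miR-181c-5p and -0.27 for miR-181d, beside a median of -0.13 over 109 miRNAs. In 5-LOΔ cells it was 0.06, -0.14, -0.11 and -0.21 in that order, beside a median of -0.24 over 110. The 3 negative values in 5-LOΔ cells turned to between 0.005 and 0.11 when the sum of all noncoding RNAs was used or the median miRNA was set to 0, and miR-181a-5p went from 0.06 to 0.27 and 0.28.

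Ratios between members within a group do not depend on the scaling between groups. The 2 passenger arms of miR-181a report on separate loci, and their ratio varied most among those computed. miR-181a-2-3p was 3.39 times miR-181a-3p in wild-type cells, 5.91 times in 5-LOΔ cells, 1.87 times in wild-type cells with LPS and 1.77 times in 5-LOΔ cells with LPS. Both groups with LPS were thus below both groups without. The change with LPS was -0.86 on the log2 scale in wild-type (counting interval -1.43 to -0.29, wider -2.06 to 0.34) and -1.74 in 5-LOΔ cells (-2.25 to -1.23, wider -2.91 to -0.56). Between the genotypes the change was 0.80 without LPS (0.23 to 1.37, wider -0.40 to 2.00) and -0.07 with LPS (-0.58 to 0.43).

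The ratio of the guide to its passenger arms can be given for miR-181a only over both loci together. miR-181a-5p was 25.5 times the sum of both 3p arms in wild-type cells, 16.1 times in 5-LOΔ cells, 22.7 times in wild-type cells with LPS and 20.7 times in 5-LOΔ cells with LPS. The group of 5-LOΔ cells without LPS was the low one, with a log2 change against wild type of -0.66 (counting interval -0.89 to -0.44, wider -1.75 to 0.42). Taken against miR-181a-2-3p alone, the ratio was 33.0, 18.8, 34.8 and 32.4. Against miR-181a-3p alone it was 112 and 111 without LPS and 65.0 and 57.5 with LPS, so here both groups with LPS were the low ones. For MIR181C, miR-181c-5p was 5.81, 5.13, 5.66 and 7.48 times miR-181c-3p, and the counting intervals of the changes between genotypes included 0. The change with LPS in 5-LOΔ cells was 0.55 on the log2 scale (0.019 to 1.07, wider -0.64 to 1.73).

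**Figure D4:**
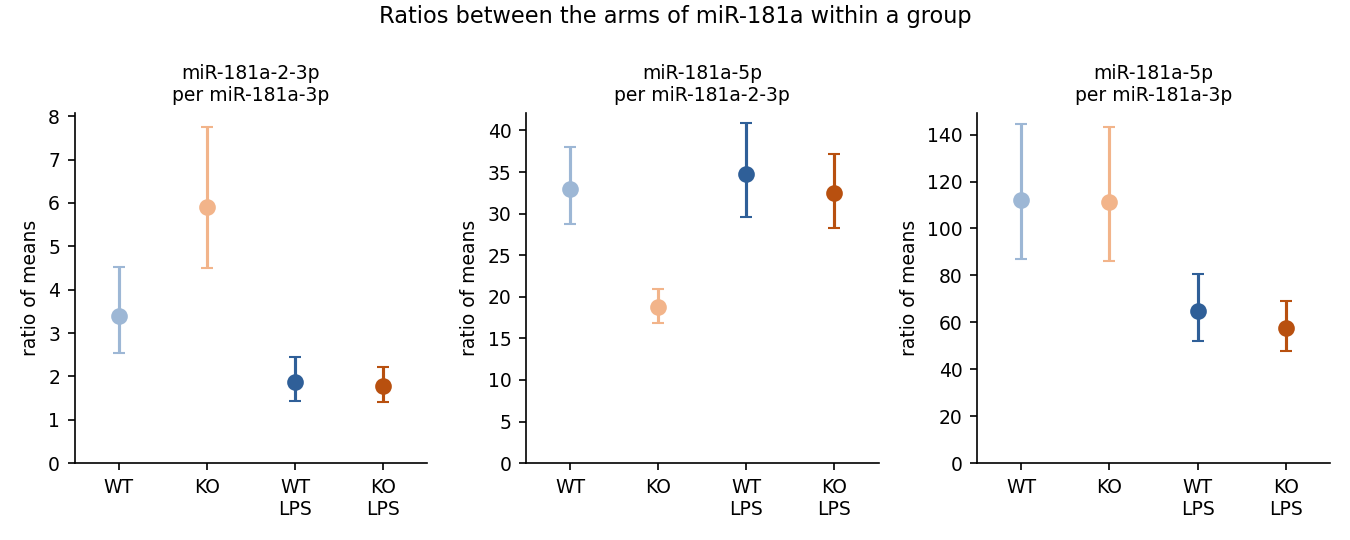
Ratios between the arms of miR-181a within wild-type (WT) and 5-LOΔ (KO) cells, without and with LPS, as points on linear axes that start at 0, with bars for the 95% counting interval. miR-181a-2-3p per miR-181a-3p is highest in 5-LOΔ cells without LPS (5.91) and lowest with LPS (1.87 and 1.77), and miR-181a-5p per miR-181a-3p is lower in both groups with LPS (65.0 and 57.5) than without (112 and 111).

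Among the 5p arms the balance moved less. miR-181a-5p was 4.63 times miR-181b-5p in wild-type and 5.13 times in 5-LOΔ cells, and 4.62 and 5.89 times with LPS. The log2 change between genotypes was 0.15 (counting interval 0.030 to 0.27) without and 0.35 (0.22 to 0.48) with LPS, and the wider intervals, -0.92 to 1.21 and -0.72 to 1.41, included 0. miR-181b-5p was 2.56, 2.69, 2.78 and 2.82 times miR-181d in the same order of groups, a range within the counting error of its changes. miR-181a-5p was 15.0, 15.0, 15.2 and 16.8 times miR-181c-5p.

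The 6 precursor entries mostly count the reads of the arms again and are no separate measurement of the hairpins. mir-181a-1 stood at 1106 in wild-type cells, 1215 in 5-LOΔ cells, 920.2 in wild-type cells with LPS and 1253 in 5-LOΔ cells with LPS, and mir-181a-2 at 1152, 1320, 940 and 1280. After subtraction of its own 3p arm, each equalled 49.9% to 50.1% of miR-181a-5p in every group. The reads of the shared arm were thus divided about evenly between the loci, so these 2 entries do not separate miR-181a-5p by locus. For miR-181b-5p the division was uneven, with 41.5% to 43.98% on mir-181b-1 and 55.9% to 58.5% on mir-181b-2. MIR181B1 and MIR181B2 also give the same 23-base arm, so the arm itself does not separate these loci. The cause of the uneven division was not tested. mir-181b-1 stood at 196 and 194 without and 162 and 180.7 with LPS, and mir-181b-2 at 275, 271, 223 and 229.

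**Figure D5:**
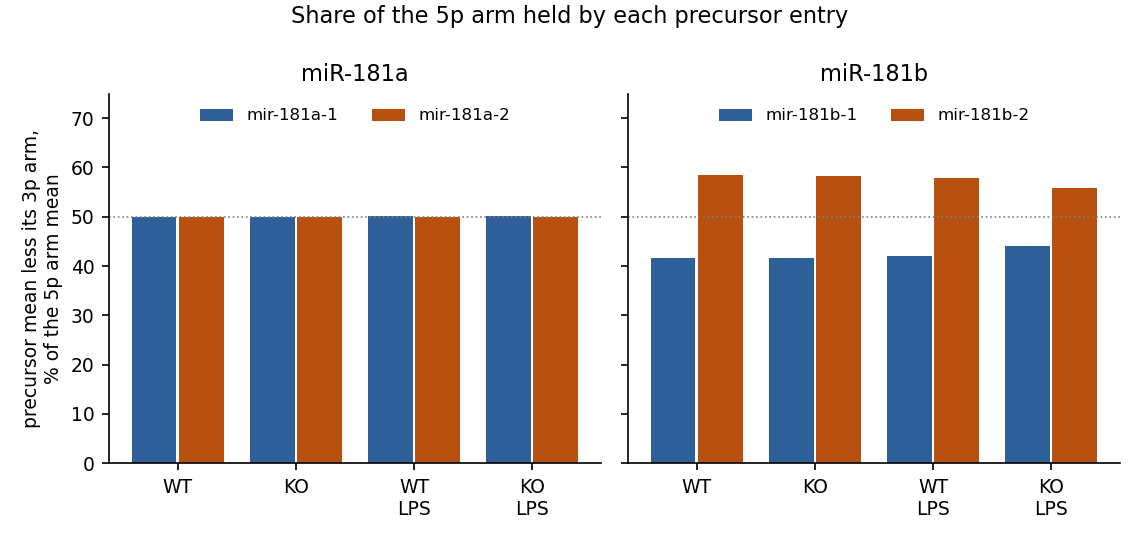
Mean of each precursor entry less its 3p arm, as a percent of the mean of its 5p arm, in wild-type (WT) and 5-LOΔ (KO) cells without and with LPS, with a dotted line at 50%. The entries of miR-181a hold about 50% of miR-181a-5p each, and those of miR-181b hold 41.5% to 43.98% and 55.9% to 58.5% of miR-181b-5p.

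Other miRNAs used as markers of blood cell lineages were listed beside the family: the arms of miR-223, miR-142, miR-155, miR-150, miR-146a, miR-146b, miR-126, miR-221, miR-222 and miR-21. Without LPS, 12 of the 15 arms listed had a mean of at least 10. Of these, 2 were 1.5-fold higher and 0 were lower in 5-LOΔ cells, with a median log2 ratio of 0.19. Over all mature miRNAs the shares were 23.4% and 4.5%, with a median of 0.17. The 2 were miR-146b-5p (1268 and 2131, log2 0.75) and miR-21-5p (2499 and 3885, log2 0.64), both induced in inflammatory signalling. The lowest ratio was that of miR-223-3p, a miRNA of myeloid cells, at 93.8 and 74.3 (log2 -0.34, counting interval -0.59 to -0.080). With LPS, 14 of 16 arms had such a mean, 2 were higher, 1 was lower and the median was 0.11, beside 18.5% higher, 4.63% lower and a median of 0.14 over all mature miRNAs. The higher ones were miR-146b-5p (3704 and 7241, log2 0.97) and miR-146b-3p (154 and 243, log2 0.65), and the lower one was miR-146a-3p (20.3 and 11.3, log2 -0.85).

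The mature miRNAs most like miR-181a-5p across the 4 groups were found by the Euclidean distance between centred log2 shares of the mature sum, over 93 candidates with a mean of at least 10 in each group. They were miR-425-5p (distance 0.099), miR-16-5p (0.12) and miR-92a-3p (0.15), where the median candidate lay at 0.48. Those most like miR-181a-2-3p were miR-25-3p (0.18), miR-92a-1-5p (0.21) and miR-30e-3p (0.28), where the median was 0.78. miR-25-3p was 343 in wild-type cells, 581 in 5-LOΔ cells, 275 in wild-type cells with LPS and 361 in 5-LOΔ cells with LPS. The likeness rests on 4 group means that share their libraries, and it is a description.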

How the data were processed

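Small RNA of 12 libraries of differentiated MM6 cells was analysed, with genotype and LPS taken from the labels. Libraries were size-selected for precursor and mature miRNA. The authors trimmed and annotated the reads with the web tool omiRas, and per the labels the genome was hg19. The aligner, the mismatches it allowed and how counts were scaled are not stated there or in the study's methods. The signal columns deposited by the authors hold the mean of normalized counts over the 3 libraries of a genotype, in 1 table without and 1 with LPS. Each of these also has 3 columns with the log2 fold change, p-value and FDR of the authors' comparison, which were not used.

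No value of a single library is in these columns, so log2 ratios of means were computed with no pseudocount and no test was fitted. Size factors were recovered from means of at most 10, which are whole reads divided by 3 unknown factors and printed to 6 digits. They lay between 0.665 and 1.72 and gave 100% of those means in exactly 1 way. They set the counting error of each mean. Reads per library are given for means up to 20 that were recovered in 1 way. The steps were tested on simulated data. Counting intervals are at 95%.

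The members and lists were chosen with earlier results of these data known. Named were every miR-181 arm and precursor, up to 6 of a list of blood lineage miRNAs, fixed cell type markers and the 3 miRNAs most like each of 2 members. The alternatives were other scalings, pseudocounts of 1 and 10, no minimum mean or one of 50, a 2-fold rule, and leaving out libraries where reads were recovered. The wider interval and the scaling without miR-3607 were added after the data were seen. Sequences came from RefSeq, and hairpin and arm positions from GRCh37 with GENCODE. Tools were matplotlib 3.10.9, pandas 2.3.3, numpy 2.4.6 and scipy 1.17.1 under Python 3.11.15.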

Additional observations from a re-analysis of the deposited data

How the results depend on the processing

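For the summed 5p arms without LPS, the log2 ratio of knockout to wild type was 0.10 as reported and turned to -0.074 with equal sums of all means, -0.046 with equal mature sums, -0.12 with the median miRNA set to 0 and -0.23 with equal mature sums without miR-3607, which was added after the data were seen. With LPS it was 0.36 and became 0.29, 0.12, 0.082 and 0.037 under the same scalings. The difference of these ratios, 0.26 as reported, became 0.37, 0.17 and 0.20 under the first 3. The LPS comparison of the share was -0.16 in wild-type cells and became -0.30 with levels as deposited and -0.031 with the median set to 0. In 5-LOΔ cells it was 0.01 and became 0.22 with the share of all means, 0.23 with the median set to 0 and 0.068 without miR-3607. The members 1.5-fold higher without LPS went from 1 to 0 under a 2-fold rule. Those higher with LPS went from 1 to 0 under the same rule, under all 4 scalings, with a pseudocount of 10 and with a minimum mean of 50. Those lower with LPS went from 0 to 1 with no minimum mean, by miR-181b-3p with 2 reads against 1. The cause of these shifts was not tested.

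The counts over all mature miRNAs moved as well. Without LPS, 26 higher and 5 lower became 14 and 10 with equal sums of all means, 15 and 9 with equal mature sums, 13 and 11 with the median set to 0, 10 and 18 without miR-3607, 8 and 3 under a 2-fold rule, 51 and 38 with no minimum, 17 and 2 with a minimum of 50, and 20 and 3 with a pseudocount of 10. With LPS, 20 and 5 became 15 and 9, 10 and 17, 9 and 18, 7 and 21, 5 and 4, 42 and 33, and 13 and 1 under the first 7 of these. No paired analysis was possible because the columns are means that carry no replicate number, so the fit with a replicate block was not run. Libraries could be left out only where reads were recovered. For miR-181a-3p without LPS, leaving out 1 wild-type library gave log2 ratios of -0.05 to 0.42, the lowest without the middle one by depth. For miR-181c-3p with LPS, leaving out 1 library of 5-LOΔ cells gave -0.33 to 0.004, the highest without the deepest one. Depth limits the 3p arms other than miR-181a-2-3p, whose means rest on at most 118 reads.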

Other observations

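Beside miR-181b-3p, the reads of single libraries were recovered in 1 way for a 3p arm in 2 cases. miR-181a-3p had 23, 14 and 23 reads in the deepest, the middle and the shallowest wild-type library without LPS, which equals 18.4, 13.8 and 26.0 normalized counts (19.4 ± 6.18, SD, n = 3). miR-181c-3p had 21, 14 and 20 reads in the 5-LOΔ libraries with LPS, or 16.1, 16.8 and 24.6 normalized counts (19.2 ± 4.73, SD, n = 3). In both cases the shallowest library held the highest normalized count.

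The precursor entry mir-181c exceeded the sum of its arms slightly in every group. After subtraction of miR-181c-3p it equalled 100.9% of miR-181c-5p in wild-type cells, 101.4% in 5-LOΔ cells, 100.9% in wild-type cells with LPS and 102.8% in 5-LOΔ cells with LPS. The entry mir-181d equalled miR-181d in 3 groups and exceeded it in wild-type cells with LPS, at 140.8 against 138.6 normalized counts. miR-4420, which shares the seed of miR-181b-3p in the RefSeq table, was the one listed mature miRNA outside the family with a seed of the family.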
